A study of Mus musculus with 16 samples.

Results

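Nxnl1, Nxnl2 and Bsg were followed in sorted mouse rod photoreceptors across adult life. These 3 genes were chosen by symbol among the 45594 genes of the deposited gene table, and their 9 counted transcripts among 113468. Nxnl1 and Nxnl2 are a pair of thioredoxin-like genes of photoreceptors that encode the rod-derived cone viability factors, and Bsg encodes basigin, the cell-surface receptor of the Nxnl1 factor. The rods came from C57BL/6J mice that carry the Nrlp-GFP reporter, in which the promoter of Nrl, the rod-specifying transcription factor, drives green fluorescent protein, and GFP-positive cells were collected by flow sorting. Ages were 3, 12, 18 and 24 months (3M, 12M, 18M and 24M), with 4 libraries of stranded total RNA per age and 16 in all, which the design calls biological replicates. No library is labelled as treated and every library carries the reporter label, although the protocol also names a reporter strain that lacks Nrl. Purity of the sorted cells was checked by resorting. The labels leave it unstated if 1 mouse or several gave a replicate, so p-values measure the spread between these libraries.

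Thioredoxins are small proteins that reduce disulfide bonds through a pair of cysteines. Each Nxnl gene is known to give a long thioredoxin-like product that acts inside the photoreceptor. It is also known to give a truncated product, which is made when the intron is kept in the messenger and which is secreted. The secreted Nxnl1 product binds the long form of basigin on cones, in a complex with the glucose transporter Slc2a1, and is known for favouring glucose uptake and survival of cones.

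Nxnl1 lies on the minus strand at chr8:71560556-71566649, Nxnl2 on the plus strand at chr13:51171025-51175187 and Bsg on the plus strand at chr10:79704491-79711969 (GRCm38, as the deposited gene table places them). No annotated gene overlaps any of them, and the nearest neighbours recorded are Tmem221, 1683 bp from Nxnl1, and the small nuclear RNA gene Gm25794, 900 bp from Bsg. The Nxnl1 and Nxnl2 coding sequences hold 217 and 156 codons and share 60.1% of 449 aligned bases. The stretch below is shown because it holds the thioredoxin cysteine pair of Nxnl1. Capitals mark codons 44 to 47 of Nxnl1, which begin and end with a cysteine codon, and the 4 codons of Nxnl2 aligned to them, 38 to 41. In Nxnl1 this is the single pair of cysteine codons 3 codons apart, and the Nxnl2 reading frame has 0 such pairs. Both stretches lie in the first coding exon, Nxnl1 at chr8:71566415-71566474 on the minus strand and Nxnl2 at chr13:51171410-51171469 on the plus strand.
Nxnl1: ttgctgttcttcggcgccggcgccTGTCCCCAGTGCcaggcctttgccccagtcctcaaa
Nxnl2: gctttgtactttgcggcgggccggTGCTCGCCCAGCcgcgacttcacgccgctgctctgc

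The long and short protein forms are not separated by the counted transcripts of Nxnl1 and Nxnl2. Both counted Nxnl1 transcripts, Nxnl1-202 (2730 bases, 2 exons) and Nxnl1-201 (2285 bases, 3 exons), hold the same 651-base coding sequence and differ by an intron removed after the stop codon. Nxnl2 is counted as Nxnl2-201 alone (1167 bases). The annotation also lists Nxnl2-202 (2904 bases), which keeps the intron and is not analysed here. Its sequence around the end of exon 1 is shown because the short product is known to come from such a messenger. The reading frame that starts at the Nxnl2 start codon runs for 101 codons without a stop and meets a stop codon (capitals) at chr13:51171626-51171628, which begins 2 bases past the last base of exon 1. The stretch is chr13:51171595-51171628, plus strand, GRCm38.
Nxnl2-202: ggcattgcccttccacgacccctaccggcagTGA

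For Bsg the forms can be told apart. Bsg-201, the long form with 389 codons, holds an exon at chr10:79708697-79709044 that Bsg-205, the short form with 273 codons, skips. The 3 junctions are shown because they set the long form apart. The skipping junction is also in Bsg-203 and Bsg-204. Lower case is the exon before the junction and capitals the exon after it. The long form joins chr10:79704555-79704584 to chr10:79708697-79708726 and chr10:79709015-79709044 to chr10:79709671-79709700, and the short form joins the first of these stretches directly to the last.
Bsg-201 entry: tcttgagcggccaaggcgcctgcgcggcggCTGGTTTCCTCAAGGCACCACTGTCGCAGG
Bsg-201 exit: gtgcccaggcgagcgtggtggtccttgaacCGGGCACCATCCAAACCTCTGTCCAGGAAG
Bsg-205 skip: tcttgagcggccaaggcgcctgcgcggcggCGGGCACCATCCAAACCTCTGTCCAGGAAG

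**Figure D1:**
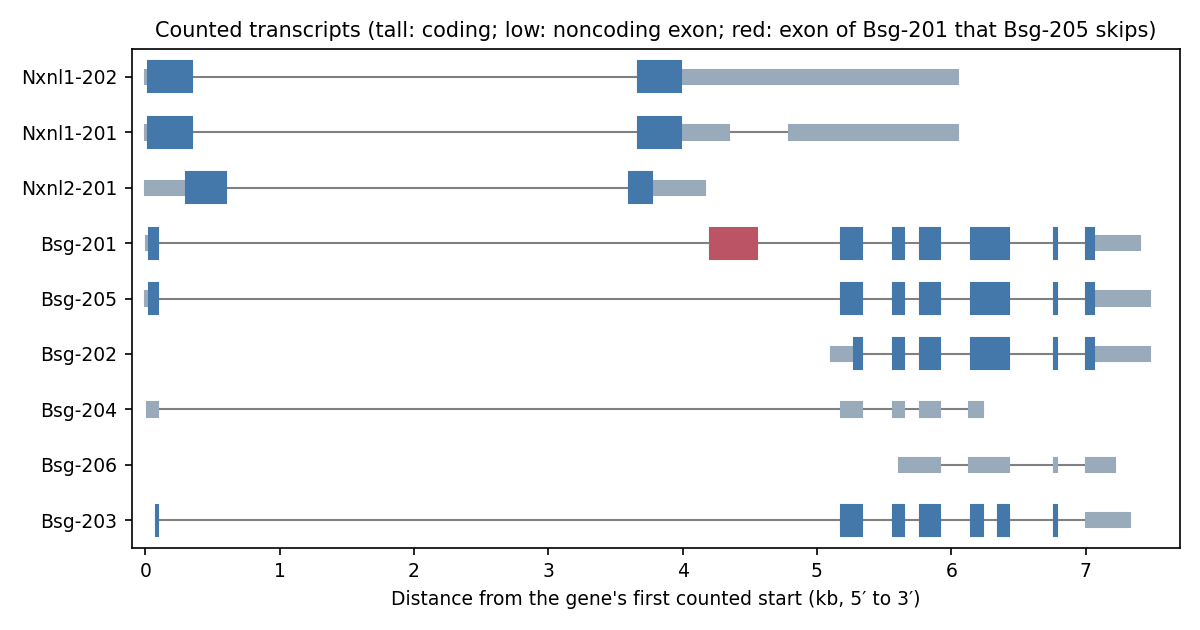
Counted transcripts of Nxnl1, Nxnl2 and Bsg drawn to scale, with distance from the first counted start of each gene in kb on the x axis and 1 transcript per row. Tall boxes are coding, low boxes are noncoding exons and thin lines are introns. The red exon is the one that Bsg-201 holds and Bsg-205 skips.

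Library totals ran from 20579144 to 28791777 estimated counts, of which Nxnl1 took 5766 to 9810, Nxnl2 615 to 1826 and Bsg 3619 to 5938. Rod markers were present, with a summed level of 18 rod genes between 41278 and 55357 CPM (counts scaled to a common library size with TMM factors) over all libraries. Other cell types gave far lower sums, up to 223 for 14 cone genes, 633 for 17 Müller glia genes, 387 for 15 bipolar genes and 93.4 for 15 genes of the retinal pigment epithelium, of which 7, Rpe65 among them, were under 1 CPM in every library. The authors' normalized table holds 13 of the libraries, without 12M replicate 4, 18M replicate 3 and 24M replicate 3, and the labels give no reason. Results are therefore given with all 16 libraries and with those 13.

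Per kilobase of transcript, the order of levels was Bsg, Nxnl1, Nxnl2. At 3M the level was 155 ± 17.4 CPM per kilobase for Bsg, 130 ± 1.26 for Nxnl1 and 56.8 ± 0.825 for Nxnl2 (SD, n = 4). Bsg was above Nxnl1 in 16 of 16 libraries, by 1.06 to 1.77 times, and Nxnl1 above Nxnl2 in 16 of 16, by 2.22 to 4.17 times. Without division by length, Bsg was below Nxnl1, at 185 ± 17.7 against 353 ± 3.47 CPM at 3M (SD, n = 4). The noncoding Bsg-204, of 564 bases, held 25.7% of the Bsg level per kilobase at 3M. The order of Bsg and Nxnl1 thus depends on the scale and in part on counting that transcript. Over the 16 libraries Bsg exceeded 97.9%, Nxnl1 96.3% and Nxnl2 83.9% of 9979 tested protein-coding genes on this scale.

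Nxnl2 was lower at every later age, and about 2.11-fold lower at 24M than at 3M. Its level was 65.7, 65.8, 67.7 and 66.0 CPM in the 4 libraries at 3M. At 12M it was 41.1, 42.1, 42.8 and 62.8 CPM, and at 18M 47.0, 47.3, 34.1 and 42.3 CPM. At 24M it was 29.1, 29.9, 36.9 and 30.0 CPM. Every later library lay below every 3M library, as did 2.67%, 6.46% and 5.32% of all genes at 12M, 18M and 24M, and replicate 4 at 12M was the one nearest to them. The mean at 24M, 31.5 ± 3.64 CPM, was 52.5% below the mean at 3M, 66.3 ± 0.963 CPM (SD, n = 4). In bulk RNA, fewer rods that express a gene and less RNA per rod cannot be told apart.

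By edgeR's quasi-likelihood test with Benjamini-Hochberg adjustment over 12177 genes, the log2 fold change of Nxnl2 from 3M was -0.49 at 12M (SE 0.13, adjusted p = 0.114), -0.64 at 18M (SE 0.13, adjusted p = 0.0150) and -1.07 at 24M (SE 0.14, adjusted p = 0.000101). Nxnl2 thus fell at 18M and 24M, and did not pass the threshold of 0.05 at 12M. Of all genes tested, 1.39% were called at 12M, 2.64% at 18M and 4.25% at 24M. Nxnl2 was the only one of the 3 genes called by this test at any age. Only 32 of the 195 genes called lower at 24M had a larger fall, and it ranked 100 of 12177 genes by p. A linear age term gave -1.02 on the log2 scale over 21 months (SE 0.13, edgeR adjusted p = 4.83e-05), where 4.8% of genes were called, and the test of any difference among the ages gave an adjusted p of 0.000896, where 2.82% were called.

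The fall at 24M was called in every alternative run, with adjusted p no higher than 0.000796. The calls at 12M and 18M depended on single libraries. Without 12M replicate 4 the 12M change was -0.66 and was called (edgeR adjusted p = 0.00238), beside 273 genes called higher and 259 lower. Without 3M replicate 3 or 18M replicate 3 the 18M change was -0.63 or -0.54 and was not called (edgeR adjusted p = 0.0519 and 0.0541). Fitted to the 13 libraries, the changes were -0.66, -0.54 and -1.16 at 12M, 18M and 24M, with edgeR adjusted p of 4.58e-06, 1.86e-05 and 8.99e-09. In that fit 38.4%, 5.85% and 23.6% of all genes were called. The authors' deposited table gives -0.66, -0.55 and -1.16 for Nxnl2, with an adjusted p of 1.69e-07 over all ages, in a table where 26.7% of 11826 genes had an adjusted p under 0.05.

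**Figure D2:**
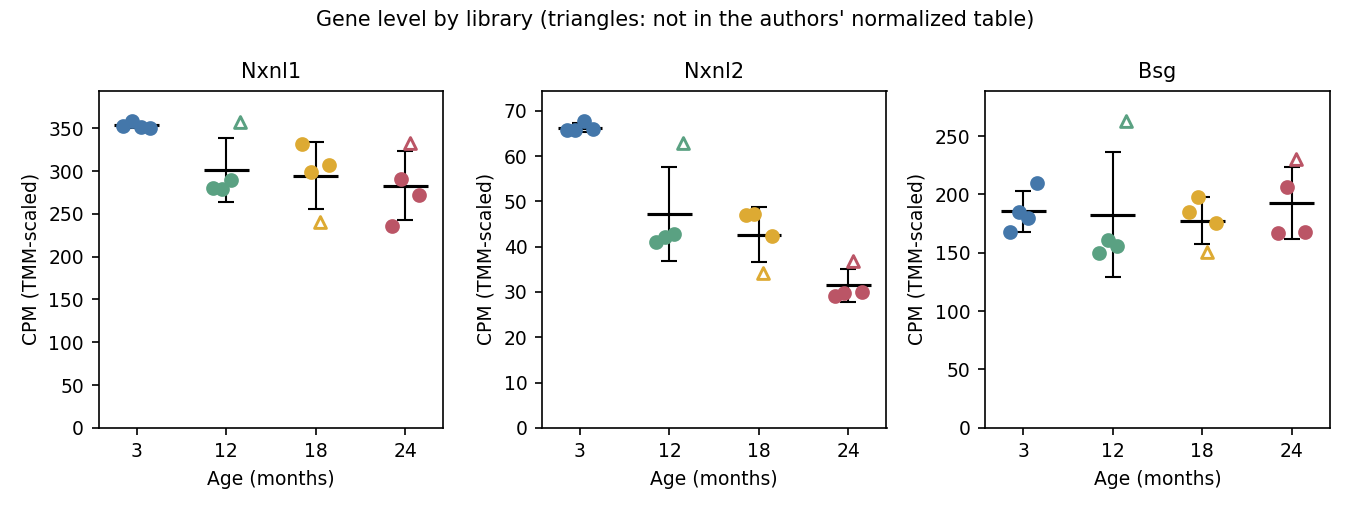
Level of Nxnl1, Nxnl2 and Bsg in CPM (y axis, from 0) against age in months (x axis), 1 point per library, with the mean and SD of the 4 libraries of each age in black. Triangles are the 3 libraries absent from the authors' normalized table. Nxnl2 runs from 65.7 to 67.7 CPM at 3M and from 29.1 to 36.9 CPM at 24M, while the Bsg values of each later age overlap those at 3M.

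Nxnl1 was lower at the later ages by a smaller proportion, and whether it is called rests on which libraries are fitted. Its level at 3M was 353, 358, 352 and 351 CPM. At 12M it was 280, 279, 290 and 357 CPM, and at 18M 332, 299, 240 and 307 CPM. At 24M it was 236, 291, 333 and 272 CPM. Every library at 18M and at 24M lay below every 3M library, again beside 6.46% and 5.32% of all genes. At 12M replicate 4 lay within the 3M values and the other 3 libraries below them. Means were 353 ± 3.47 CPM at 3M and 283 ± 40.4 CPM at 24M (SD, n = 4), a difference of 19.9%.

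In all 16 libraries the log2 fold change of Nxnl1 was -0.23 at 12M (SE 0.12, edgeR adjusted p = 0.609), -0.26 at 18M (SE 0.12, edgeR adjusted p = 0.372) and -0.32 at 24M (SE 0.12, edgeR adjusted p = 0.182), and none was called. The interval of 2 SE at 24M ran from -0.56 to -0.08. The linear term was -0.31 over 21 months (SE 0.11, edgeR adjusted p = 0.128), and -0.39 without 24M replicate 3, where it was called (edgeR adjusted p = 0.0297). Without that library the linear term called 367 genes lower, and with all 16 it called 4.8% of genes in either direction. In the 13 libraries Nxnl1 was called lower at 12M (-0.32, edgeR adjusted p = 0.00538) and 24M (-0.41, edgeR adjusted p = 0.00142), and not at 18M (-0.17, edgeR adjusted p = 0.195), against the 38.4%, 23.6% and 5.85% of all genes called there. Its linear term there was -0.35 (edgeR adjusted p = 0.0216), where 8.57% of genes were called. The authors' deposited table gives -0.32, -0.18 and -0.41 for Nxnl1, with an adjusted p of 0.00453.

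Nxnl1 and Nxnl2 were lower beside a lower rod marker sum, which was 51303 to 55357 CPM at 3M and 41278 to 49025 CPM at 24M, without overlap. Of single genes, 5.32% lay wholly below 3M at 24M, and how often sums of genes do so was not counted. Of the 18 rod markers, 1 was called lower at 24M in 16 libraries, where 1.6% of all genes were, and 13 in the 13 libraries, where 11.4% were. The Müller glia sum was 231 to 392 CPM at 3M and 315 to 444 CPM at 24M, and 633 CPM in 12M replicate 4, the library in which all 3 genes were highest for their age. Libraries also differed in how their log2 CPM ran with transcript length, with slopes of -0.0410 to -0.0161 at 3M. At 12M the slope was -0.0474 in replicate 4 and 0.0272 to 0.0749 in the others, and at 18M it was 0.0839 in replicate 3 and -0.0436 to 0.000531 in the others. At 24M it was -0.0815 in replicate 3 and -0.000242 to 0.0493 in the others. With that slope as a covariate in all 16 libraries, Nxnl1 was called at 24M (-0.23, edgeR adjusted p = 0.0378) and Nxnl2 at 12M (-0.32, edgeR adjusted p = 0.0347). In that fit 751 of 12177 genes were called higher and 643 lower at 24M, beside 323 and 195 without the slope. At 12M it called 84 genes lower, beside 50 without the slope. With the slope in the 13 libraries, Nxnl1 was called at no single age. The part of cell makeup in these changes was not tested.

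**Figure D3:**
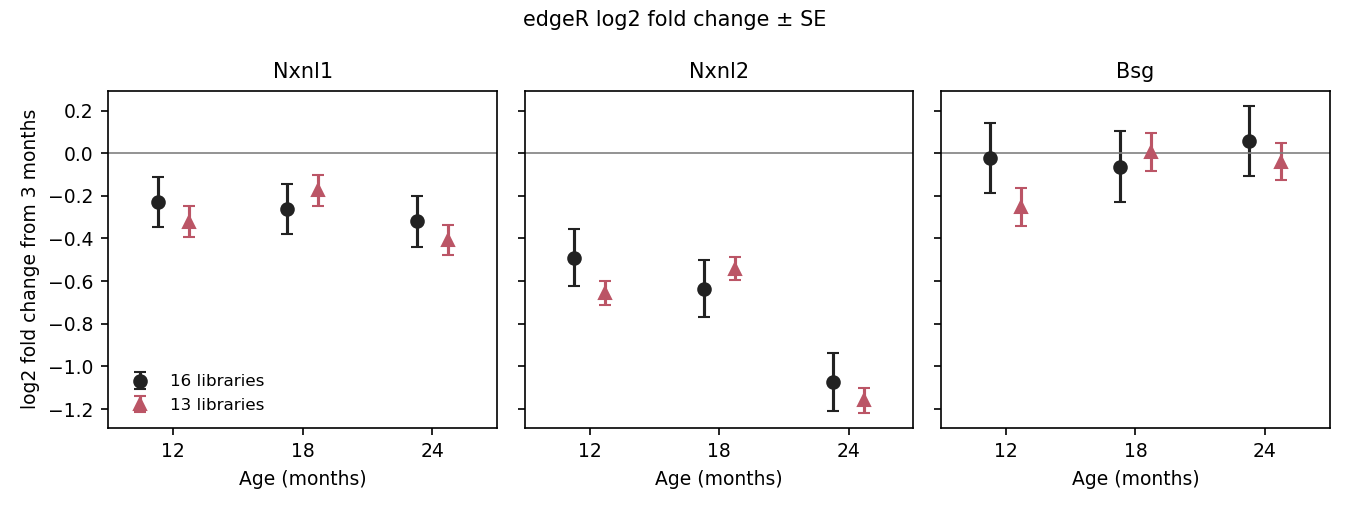
Log2 fold change from 3M (y axis) of each gene at 12, 18 and 24 months (x axis), by edgeR's quasi-likelihood fit, with bars of 1 SE. Black circles are the fit to 16 libraries and red triangles the fit to the 13 libraries of the authors' normalized table. Nxnl2 reaches -1.07 and -1.16 at 24M, and Nxnl1 -0.32 and -0.41.

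Bsg showed no called change from 3M in all 16 libraries. Its level was 168, 185, 179 and 210 CPM at 3M and 150, 161, 156 and 263 CPM at 12M. At 18M it was 185, 198, 151 and 176 CPM, and at 24M 167, 207, 230 and 168 CPM. Each later age overlapped 3M. The log2 fold changes were -0.02, -0.06 and 0.06 at 12M, 18M and 24M, each with an SE of 0.17 (edgeR adjusted p = 0.957, 0.883 and 0.942). At 24M the interval of 2 SE ran from -0.27 to 0.39, and changes within it cannot be told from 0 here. The direction at 12M turned when 12M replicate 1, 2 or 3 or 3M replicate 4 was left out, and with the length slope or length-scaled abundance (TPM). Without 12M replicate 4 the 12M value was -0.25, and in the 13 libraries, -0.25 as well, it was called (edgeR adjusted p = 0.0402), beside 38.4% of all genes.

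The ratio of the 2 thioredoxin-like genes differed between ages. A ratio within a library is free of library scaling, and 9 such comparisons were made with two-sided exact permutation tests, where 4 against 4 libraries cannot give a p below 0.0286. The log2 ratio of Nxnl2 to Nxnl1 was -2.43, -2.45, -2.38 and -2.41 at 3M and -2.77, -2.72, -2.76 and -2.51 at 12M. It was -2.82, -2.66, -2.82 and -2.86 at 18M and -3.02, -3.29, -3.17 and -3.18 at 24M. Every later library lay below every 3M library, 12M replicate 4 included. Such a separation by itself gives the lowest possible p, and how many other gene pairs separate likewise was not counted. The differences from 3M were -0.28, -0.38 and -0.75 (each exact permutation p = 0.0286, adjusted p = 0.0367), so Nxnl2 was lower relative to Nxnl1 at each later age.

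Bsg was higher relative to Nxnl2 at each later age. The log2 ratio of Bsg to Nxnl2 was 1.35 to 1.67 at 3M, 1.86 to 2.06 at 12M, 1.98 to 2.14 at 18M and 2.48 to 2.79 at 24M, with no overlap between 3M and any later age. Differences from 3M were 0.45, 0.58 and 1.13 (each exact permutation p = 0.0286, adjusted p = 0.0367). Here too, the share of other gene pairs without overlap was not counted. The log2 ratio of Bsg to Nxnl1 differed by 0.18 at 12M (exact permutation p = 0.171, adjusted p = 0.171), 0.21 at 18M (exact permutation p = 0.0857, adjusted p = 0.0964) and 0.38 at 24M (exact permutation p = 0.0286, adjusted p = 0.0367). With the deposited gene CPM, the last was 0.38 with an exact permutation p of 0.0571 and an adjusted p of 0.0735, and was no longer called. In the 13 libraries, where 4 against 3 cannot go below 0.0571, the 24M differences were -0.75 for Nxnl2 to Nxnl1, 1.12 for Bsg to Nxnl2 and 0.37 for Bsg to Nxnl1.

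**Figure D4:**
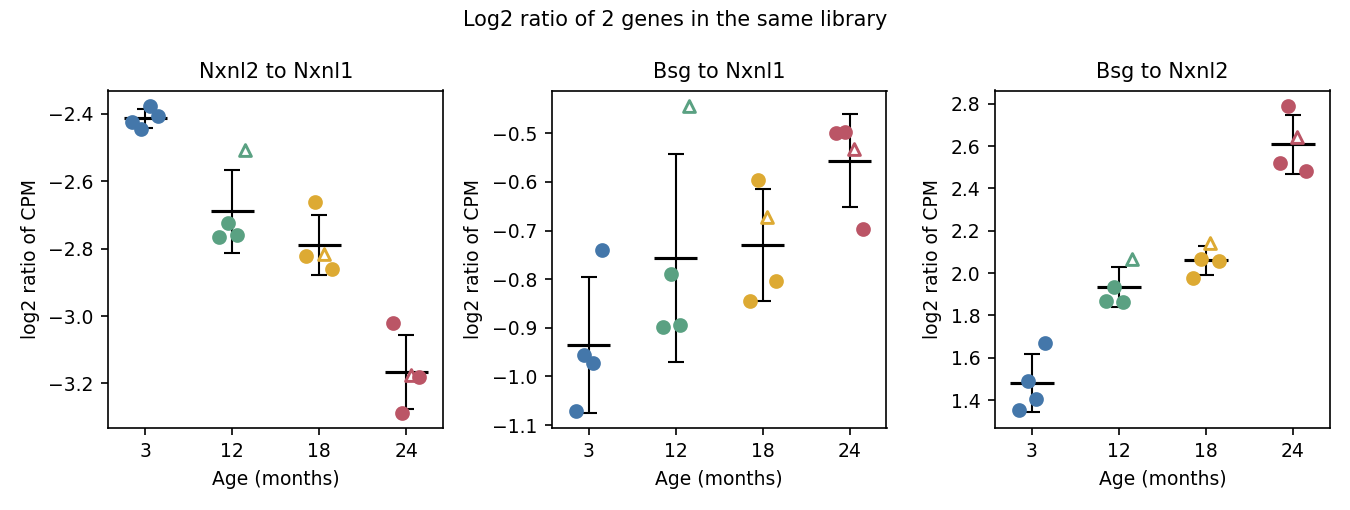
Log2 ratio of the CPM of 2 genes in the same library (y axis, not from 0) against age in months, 1 point per library, with mean and SD in black and triangles as the 3 libraries absent from the authors' normalized table. The Nxnl2 to Nxnl1 ratio runs from -2.45 to -2.38 at 3M and from -3.29 to -3.02 at 24M.

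Nxnl2-201 is the single counted Nxnl2 transcript, so its counts are those of the gene and its direction is not a second result. The same nearly holds for Nxnl1-202, which has almost all Nxnl1 counts. Nxnl2-201 was 66.5 ± 0.542 CPM at 3M and 31.0 ± 3.73 CPM at 24M (SD, n = 4). Among 43979 transcripts tested, its log2 fold change was -0.66 at 18M (edgeR adjusted p = 0.0660) and -1.10 at 24M (edgeR adjusted p = 0.00108), where 0.771% and 1.33% of transcripts were called, beside 0.325% at 12M. Nxnl2-201 was the only transcript of the 3 genes called at any age in 16 libraries. Without 12M replicate 4 it was also called at 12M (-0.69, edgeR adjusted p = 0.0162) and 18M (-0.66, edgeR adjusted p = 0.00691), and without 24M replicate 3 at 18M (-0.66, edgeR adjusted p = 0.0499). The run without 12M replicate 4 called 112 transcripts lower at 12M and 197 at 18M. The 13 libraries gave calls for Nxnl2-201 at 12M (-0.69, edgeR adjusted p = 0.000179) and 18M (-0.56, edgeR adjusted p = 0.000376) and for Nxnl1-202 at 12M (-0.35, edgeR adjusted p = 0.0219) and 24M (-0.43, edgeR adjusted p = 0.00707). In that fit 6.63%, 1.18% and 4.73% of transcripts were called at 12M, 18M and 24M.

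Nxnl1 was counted almost wholly as Nxnl1-202, the transcript that keeps its 3′ end unspliced, with 99.7% to 100% of Nxnl1 counts in every library. Nxnl1-201 had 0.129% to 0.326% at 3M and 0% to 0.108% at 24M. A count of 0 in 24M replicate 1 allows a share of up to 0.0504%, for counting error only. The difference of -0.16 percentage points did not pass adjustment over 24 share comparisons (exact permutation p = 0.0286, adjusted p = 0.137), and it rests on at most 26.8 estimated counts in a library.

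Bsg was counted mainly as its long form. Bsg-201 held 59.1%, 60.8%, 58.4% and 62.6% of Bsg counts at 3M and 54.4%, 54.0%, 57.2% and 57.3% at 12M. It held 53.3%, 58.0%, 53.8% and 55.6% at 18M and 56.6%, 60.2%, 57.7% and 56.2% at 24M. The 12M and 18M values lay below those at 3M without overlap, while those at 24M overlapped them. How many transcripts of other genes separate likewise in their shares was not counted. Differences from 3M were -4.50 points at 12M, -5.05 at 18M (each exact permutation p = 0.0286, adjusted p = 0.137) and -2.54 at 24M (exact permutation p = 0.114, adjusted p = 0.264), and none passed adjustment. Per kilobase of transcript, Bsg-201 held 47.2% ± 1.18 in the youngest rods and 45.1% ± 1.20 in the oldest (SD, n = 4).

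The short form Bsg-205 held 9.74% to 17.4% of Bsg counts over all libraries, with means of 12.6% ± 2.41 at 3M and 11.5% ± 0.818 at 24M (SD, n = 4). Bsg-202, which starts downstream of the long form's exon and codes for 218 codons, had a mean of 13.9% at 3M and 17.6% at 24M, and the noncoding Bsg-204 had 12.1% and 11.8%. Per kilobase, Bsg-204, the shortest of the Bsg transcripts with 564 bases, had 25.7% at 3M and 24.9% at 24M. Bsg-206, annotated as retaining an intron, stayed between 0.786% and 1.81%. Bsg-203 had no count in any 3M library, which allows a share of up to 0.0672% in the shallowest, and 0.307% to 1.21% at 12M. Its 12M difference did not pass adjustment either (exact permutation p = 0.0286, adjusted p = 0.137). Shares of transcripts of 1 gene sum to 100 and are estimated from shared reads, so they are not independent.

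**Figure D5:**
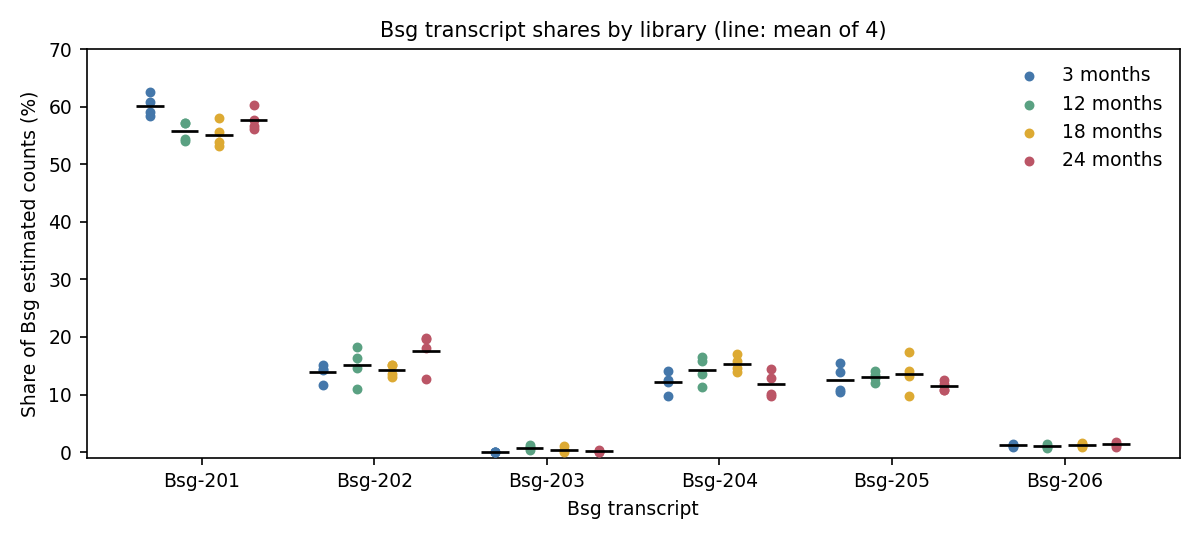
Share of Bsg estimated counts in percent (y axis) held by each of the 6 counted Bsg transcripts (x axis), 1 point per library coloured by age, with lines at the mean of 4 libraries. Bsg-201 lies between 53.3% and 62.6% and Bsg-205 between 9.74% and 17.4%.

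The genes that work with these factors were read from 5 lists. In the thioredoxin and peroxiredoxin list, 0 of 22 tested genes were called at 24M by edgeR in either direction, beside the 2.65% of all genes called higher and 1.6% lower. In the 13 libraries 2 of 21 were higher and 6 lower, beside 12.2% and 11.4% of all genes. The median log2 change of that list at 24M was -0.10, beside 0.01 over all genes. Txnrd1, the cytosolic thioredoxin reductase, had a log2 change of -0.17 (edgeR adjusted p = 0.417) and Glrx3, a glutaredoxin, one of -0.39 (edgeR adjusted p = 0.0936). In the 13 libraries both were called lower, at -0.22 (edgeR adjusted p = 0.0149) and -0.41 (edgeR adjusted p = 0.00461). Msra, a methionine sulfoxide reductase, averaged 7.06 ± 0.251 CPM in the youngest rods and 7.08 ± 0.817 in the oldest (SD, n = 4). Txn1, the cytosolic thioredoxin, and Nxn, the nucleoredoxin, did not reach 5 CPM in 4 libraries and were not tested, with means of 3.04 and 4.11 CPM at 3M.

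Of 12 tested partners of basigin, 1 was called lower and 0 higher at 24M, beside 1.6% and 2.65% of all genes. That gene was Mmp2, a matrix metalloproteinase, which fell from 17.1 ± 1.01 CPM at 3M to 10.01 ± 0.331 CPM at 24M (SD, n = 4). Its log2 change was -0.48 at 18M (edgeR adjusted p = 0.00735) and -0.77 at 24M (edgeR adjusted p = 7.68e-05). Slc2a1, the glucose transporter of the basigin complex, averaged 70.6 ± 5.11 CPM in the youngest and 65.1 ± 13.6 in the oldest rods (log2 change -0.12, edgeR adjusted p = 0.848). Slc16a1, a lactate transporter that needs basigin to reach the membrane, stood at 193 ± 17.5 and 204 ± 10.5 CPM (log2 change 0.08, edgeR adjusted p = 0.845). Fitted on the 13 libraries, Slc2a1 was called lower at 24M (-0.26, edgeR adjusted p = 0.0425) and Slc16a1 was not (0.10, edgeR adjusted p = 0.472), while the list had 2 higher and 3 lower, beside 12.2% and 11.4% of all genes. Slc16a7 and Slc16a8, other lactate carriers, were below the filter, at 0.214 and 2.63 CPM at 3M.

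In the glycolysis and lactate list, 2 of 30 genes rose and 0 fell at 24M by edgeR, beside 2.65% and 1.6% of all genes. Ldhb, the lactate dehydrogenase subunit that complements Ldha, rose from 18.6 ± 1.97 to 29.8 ± 4.63 CPM (log2 change 0.68, edgeR adjusted p = 0.0297). Pdk3, a kinase that inhibits pyruvate dehydrogenase, rose from 31.1 ± 1.17 to 36.8 ± 0.640 CPM (log2 change 0.24, edgeR adjusted p = 0.0447). The list's counts changed with the libraries fitted, to 2 higher and 14 lower of 30 in the 13 libraries, where 12.2% and 11.4% of all genes were called. Ldha, Hk2 and Pkm, which carry aerobic glycolysis in photoreceptors, had log2 changes of -0.24, -0.34 and -0.28 in 16 libraries (edgeR adjusted p = 0.630, 0.354 and 0.531) and were called lower in the 13 libraries, at -0.41, -0.46 and -0.44 (edgeR adjusted p = 0.00420, 0.0265 and 0.0121).

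Among 15 retinal transcription factors, 2 fell at 24M and 0 rose, beside 1.6% and 2.65% of all genes. Prdm1, a repressor of bipolar cell genes, fell from 25.4 ± 1.08 CPM at 3M to 6.23 ± 1.75 CPM at 24M (log2 change -2.02, edgeR adjusted p = 6.16e-07). Rorb, an orphan nuclear receptor needed for rod formation, fell from 457 ± 74.0 to 243 ± 65.6 CPM (log2 change -0.91, edgeR adjusted p = 0.0455). Crx, the homeobox factor of photoreceptors, stood at 1604 ± 50.1 and 1408 ± 135 CPM (log2 change -0.19, edgeR adjusted p = 0.444), and Otx2, its relative, at 144 ± 7.12 and 149 ± 4.67 CPM (log2 change 0.05, edgeR adjusted p = 0.821). Nrl had a log2 change of -0.31 and Nr2e3, its target in rods, of 0.03 (edgeR adjusted p = 0.329 and 0.956). In the 13 libraries Nrl (-0.44, edgeR adjusted p = 0.000765) and Crx (-0.26, edgeR adjusted p = 0.0105) were called lower at 24M. Otx2 (edgeR adjusted p = 0.426) and Nr2e3 (edgeR adjusted p = 0.867) were not called there. Of the 15, 6 were called lower and 0 higher in the 13 libraries, beside 11.4% and 12.2% of all genes. Of 9 genes around tau, which the long Nxnl1 product is reported to protect, 0 were called at 24M in 16 libraries, beside 2.65% of all genes higher and 1.6% lower. In the 13, 1 of 8 was called higher and 1 lower, beside 12.2% and 11.4%. These were Map4, a microtubule-associated protein (0.17, edgeR adjusted p = 0.0394), and Ppp2ca, a phosphatase subunit (-0.17, edgeR adjusted p = 0.0254). In 16 libraries Mapt, the tau gene, stood at 4.31 ± 1.12 and 5.71 ± 2.16 CPM (SD, n = 4).

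The promoters of Nxnl1 and Nxnl2, 250 bases before to 50 after the RefSeq start (GRCm38.p6), were searched on both strands for 4 motifs of retinal factors or core promoters. TAATCC, a letter pattern that Crx and Otx2 bind, was found in 1 of the 2 promoters, that of Nxnl2, in reverse orientation with its first base 152 bases before the start. The homeodomain core TAATTA was found in neither, nor was the E-box CAGCTG or the TATA box TATAAA. Among 32851 promoters of the same length, TAATCC was in 7.06%, the homeodomain core in 5.29%, the E-box in 16.3% and the TATA box in 13.6%. The stretch with the match, in capitals, is chr13:51170846-51170905 on the plus strand, and is shown because it is the single match.
Nxnl2 promoter: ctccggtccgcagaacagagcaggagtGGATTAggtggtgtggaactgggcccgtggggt

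The genes most like each of the 3 were found by Pearson's r of log2 CPM over the 16 libraries, among 10268 protein-coding genes, as a description. Those most like Nxnl2 were Rasl11a (r = 0.969), Endod1, Htra1, Mmp2 and Shisa2 (r = 0.939), with log2 changes at 24M from -0.77 to -1.64, a direction that choosing them by likeness to Nxnl2 fixes. For Nxnl1 they were Cnpy2 (r = 0.968), Chchd10, Aldoc, Uqcrfs1 and Rcvrn (r = 0.952). For Bsg they were Mfge8 (r = 0.956), Eif3i, Clptm1, Snrnp200 and Mrps18a (r = 0.942), with log2 changes at 24M between -0.08 and 0.05. Between the 3 genes r was 0.84 for Nxnl1 and Nxnl2, 0.60 for Nxnl1 and Bsg and 0.30 for Nxnl2 and Bsg. All these values share libraries. In the 13 libraries r was 0.90 for Nxnl1 and Nxnl2, 0.44 for Nxnl1 and Bsg and 0.22 for Nxnl2 and Bsg. There it was 0.968 for Nxnl2 and Rasl11a, 0.983 for Nxnl1 and Cnpy2 and 0.911 for Bsg and Mfge8.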

How the data were processed

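Rod RNA of 16 libraries was analysed. The authors deposited estimated counts per transcript, a gene CPM signal for 16 libraries (columns sum to 936588 to 1055611) and a normalized CPM signal for 13. Their comparison table gives, per the file headers, log2 differences from 3M, a score (F) and a p-value. Build GRCm38.p4 and the tools limma 3.32.2, edgeR 3.13.9 and kallisto 0.42.5 are listed, without roles, in the submitters' processing notes. The sources used here do not describe how genes were summed. Their gene CPM followed the plain sum within 0.0074 (log2) for Nxnl1 and Nxnl2 and deviated by -0.09 to 0.10 for Bsg.

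Here 111896 of 113468 transcripts were matched to GENCODE by identifier (0.73% to 1.08% of counts were not), summed to genes and rounded. Genes reaching 5 CPM in 4 or more libraries (12177) and transcripts reaching 1 CPM in as many (43979) were tested with edgeR 4.0.16 (R 4.3.3), TMM factors, 1 mean per age and Benjamini-Hochberg adjustment, with 0.05 as the threshold. SE is the log2 change divided by the square root of F. Shares and ratios had exact permutation tests (scipy 1.17.1). CPM per kilobase divides each transcript by its annotated length. The fits were tested on simulated data. Replicates share numbers across ages, but the labels say nothing of shared animals or days, and 11 of 24 same-number pairs had correlated deviations above 0.1, so the numbers were not taken as pairs. No 2 libraries of an age agreed within sampling noise.

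The 3 genes, the 5 pathway lists and the 9 marker lists were chosen with earlier results of these data known. Named genes are the 3 genes and their transcripts, a fixed set of 19 partner and rod genes, up to 4 genes per list with the smallest p at 24M and any called gene of a list, of which those with a described role are printed, and the 5 most like each gene. Alternatives were DESeq2 1.42.0 and its size factors, limma 3.58.1 voom with and without quality weights, filters at 1 CPM or none, limma on the deposited gene CPM with pseudocounts of 0.5 and 2, the compared ages alone, a replicate block, each library left out, the 13 libraries, a length slope, and shares per kilobase. Chosen after seeing the data were TPM, the length slope in the 13 libraries, and the 13 libraries for transcripts, shares and ratios. Floors for a count of 0 cover counting error only, since PCR reads without molecular identifiers are not independent molecules. Intervals of 2 SE come from the edgeR fit and include the spread between libraries.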

Additional observations from a re-analysis of the deposited data

Results flagged for a closer look

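In groups of 4 libraries, 10 of 88 groups examined held a library that stood apart. Its gap to its nearest neighbour, divided by the range of the group, exceeded Dixon's 95% critical value of 0.829. Chance gives such a gap in about 1 of 20 independent groups. These groups share libraries, and Nxnl1 with Nxnl1-202 and Nxnl2 with Nxnl2-201 are nearly the same counts, so the 10 are not separate observations. At 12M, replicate 4 lay above the other libraries for Nxnl1 (357 CPM), Nxnl2 (62.8 CPM) and Bsg (263 CPM). Its transcripts Nxnl1-202 (368 CPM), Nxnl2-201 (64.8 CPM) and Bsg-201 (155 CPM) stood apart in the same library, as did its log2 ratio of Nxnl2 to Nxnl1 (-2.51). At 24M, replicate 3 was above the others for Nxnl2 (36.9 CPM) and Nxnl2-201 (36.5 CPM). Bsg-206 was highest in 24M replicate 2 (3.71 CPM). Both 12M replicate 4 and 24M replicate 3 are absent from the authors' normalized table, and 24M replicate 2 is in it.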

How the results depend on the processing

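Over 357 recomputed gene values, 315 kept their direction and side of the threshold, 22 changed sign, all of Bsg, 17 came to pass the threshold and 3 no longer did. Nxnl2 at 24M and in the linear term was called in every alternative, with changes of -1.16 to -0.88 and -1.07 to -0.84. DESeq2 called Nxnl2 at 12M (-0.48, adjusted p = 0.0383), where it called 214 genes higher and 99 lower. With limma quality weights Nxnl2 was called at 12M (-0.64), Nxnl1 at 12M (-0.32), 24M (-0.40) and in the linear term (-0.37), and Bsg turned to 0.0101 at 18M, -0.0583 at 24M and -0.00717 in the linear term. Of 12177 genes, the weights called 2878 higher and 2949 lower at 12M, and 1654 and 1657 at 24M. In the linear term they called 1202 higher and 1186 lower, so these calls were widespread. In the 13 libraries Nxnl1 was called at 12M (-0.32), 24M (-0.41) and in the linear term (-0.35), Nxnl2 at 12M (-0.66) and Bsg at 12M (-0.25), and Bsg turned to 0.00748 at 18M, -0.0392 at 24M and -0.00435 in the linear term. With the length slope Nxnl2 was called at 12M (-0.32), Nxnl1 at 24M (-0.23) and in the linear term (-0.24), and Bsg turned to 0.18 at 12M and 0.0727 at 18M. That fit called 751 genes higher and 643 lower at 24M, and 659 higher and 510 lower in the linear term. With the slope in the 13 libraries Nxnl2 was called at 12M (-0.60) and Nxnl1 in the linear term (-0.25), and Bsg turned to 0.0571 at 12M and 0.0285 at 18M. The cause of these differences was not tested.

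TPM, chosen after seeing the data, moved the median of all genes up by 0.14, 0.15 and 0.17 (log2) at 12M, 18M and 24M. On that scale Nxnl2 was no longer called at 18M (-0.49, limma adjusted p = 0.0846) and stayed called at 24M (-0.88, limma adjusted p = 0.000518), Nxnl1 was -0.15 at 24M with values that overlapped those at 3M, and Bsg was 0.15 at 12M, 0.15 at 18M and 0.23 at 24M. Relative to the median the 24M values were -1.06, -0.32 and 0.06 for Nxnl2, Nxnl1 and Bsg. Transcripts under 300 bases took 59.0% to 61.6% of TPM at 3M and 51.9% to 59.5% at 24M.

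With a library left out, Nxnl1 ranged from -0.32 to -0.18, -0.32 to -0.17 and -0.41 to -0.24 at 12M, 18M and 24M and from -0.39 to -0.26 in the linear term, Nxnl2 from -0.66 to -0.42, -0.69 to -0.54 and -1.16 to -1.04, and Bsg from -0.25 to 0.0600, -0.12 to 0.00758, -0.0401 to 0.12 and, in the linear term, -0.0541 to 0.0983. With a library left out, uncalled Bsg transcripts also turned sign at 12M (Bsg-202 from -0.0385 to 0.0894, Bsg-204 from -0.14 to 0.39, Bsg-205 from -0.22 to 0.17), at 18M (Bsg-202 from -0.15 to 0.0528, Bsg-205 from -0.15 to 0.11, Bsg-206 from -0.12 to 0.0878) and at 24M (Bsg-201 from -0.13 to 0.0568, Bsg-204 from -0.19 to 0.13, Bsg-205 from -0.20 to 0.00982, Bsg-206 from -0.00243 to 0.33). In the 13 libraries Bsg-205, Bsg-204 and Bsg-202 were -0.22, -0.14 and -0.0387 at 12M, and Bsg-202 was 0.0486 at 18M. The log2 ratio of Bsg to Nxnl1 at 24M was 0.38 with the deposited gene CPM (exact permutation p = 0.0571).

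Counts of genes called at 24M, 323 higher and 195 lower, became 1470 and 1373 in the 13 libraries, 1654 and 1657 with quality weights, 751 and 643 with the length slope, and 154 and 51 with TPM; DESeq2 gave 338 lower and the slope in the 13 libraries 96 lower. At 12M, 119 and 50 became 2354 and 2269, 2878 and 2949, and 31 and 10 in the 13 libraries, with quality weights and with TPM, and 214 and 99 with DESeq2, 74 and 32 with the 2 ages alone and 46 and 8 with the slope in the 13 libraries; the slope in all libraries gave 84 lower. At 18M, 205 and 117 became 444 and 261, 652 and 458, and 81 and 40 in the same order, and 330 and 198 with DESeq2, 420 and 243 with the slope and 522 and 282 with it in the 13 libraries; the filter at 1 CPM gave 187 and the 2 ages alone 202 lower. Without 12M replicate 4 the counts were 273 and 259 at 12M, 308 and 202 at 18M, and 304 lower at 24M. The lower count at 12M was 22 without 3M replicate 3, 28 without 3M replicate 2 or 4, and 30, 26 and 25 without 12M replicates 1, 2 and 3. At 18M it was 72, 70 and 75 without 3M replicates 2, 3 and 4, with 132 higher without 3M replicate 3. At 24M it was 122 without 3M replicate 2 and 128 without 24M replicate 4. In the linear term the lower count was 141, 136 and 150 without 3M replicates 1, 2 and 4, 158 without 24M replicate 1 and 367 without 24M replicate 3. With the replicate number as a replicate block, Nxnl2 was -0.50, -0.64 and -1.07 (edgeR adjusted p = 0.193, 0.0394 and 0.000796) and Nxnl1 -0.32 at 24M (edgeR adjusted p = 0.277); the block changed no call of the 3 genes, lowered the 24M counts to 285 and 159 and turned Bsg-204 at 24M to 0.000748, and 4 of 16 libraries correlated best with one of their own number. Depth was at least 615 estimated counts for each gene in a library, and under 30 for Nxnl1-201, whose share it limits.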
